A study of Mus musculus with 6 samples.

Results

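The genes described here encode the folding machinery of the endoplasmic reticulum (ER), the removal of misfolded ER proteins, the sensors of ER stress and the branch of that response that runs through the transcription factor ATF4. They were chosen as a list of 36 gene symbols, matched to Ensembl genes of GRCm38 through the GENCODE M21 annotation, and they stand among 54453 gene identifiers in each library. The list held 15 chaperones and folding enzymes, 10 genes of ER-associated degradation (ERAD), 4 sensors and their factors, 6 genes of the ATF4 branch and the translocon subunit Sec61b. All 36 symbols were found. Ddit3 had 2 identifiers, so the members came to 37 identifiers, and 36 of these passed the filter on low counts. The exception was the second Ddit3 identifier (ENSMUSG00000116429), which lies within the first and was at 0 in all 6 libraries.

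Proteins that enter the ER are folded there by chaperones and disulphide isomerases, and those that fail are pulled back to the cytosol and degraded. When unfolded protein accumulates, the sensors IRE1 (Ern1), PERK (Eif2ak3) and ATF6 switch on a programme known as the unfolded protein response. IRE1 splices the mRNA of the transcription factor XBP1, ATF6 is released as a factor that switches on chaperone genes, and PERK slows translation in general while that of ATF4 rises. ATF4 then drives genes of amino acid supply and of stress-induced death, and it also answers signals that do not come from the ER, among them lack of amino acids.

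RNA was sequenced from mouse pancreatic ductal adenocarcinoma organoids of 3 KPC lines named T91, T113 and T118, which are epithelial cultures grown in Matrigel. Each line was sequenced once with a short hairpin RNA (shRNA) against Scrib, hairpin number 5523, and once with an shRNA against Renilla luciferase, a gene that mouse cells lack. The comparison asked how RNA levels differ when Scrib, a scaffold protein of epithelial cell polarity, is depleted. The Scrib shRNA libraries and the Renilla shRNA libraries of a line shared genotype (KPF/FC, an abbreviation that the sources do not explain), sex and passage: T91 was female and at passage 10, T113 male and at passage 13, and T118 male and at passage 11. Both groups carried a hairpin, since no culture without one was analysed here. Delivery is described both as virus and as transfected plasmids in the submitters' texts. A single Scrib hairpin was used, and 1 library per line and hairpin leaves the variation within a line unmeasured.

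Depth ran from 24035559 to 36235773 estimated counts per library, at which 1 count was worth 0.0269 to 0.0421 CPM (counts scaled to library size). Where 3 values follow each other below, they are those of T91, T113 and T118. Scrib itself fell to 29.7, 35.0 and 30.0 CPM in Scrib shRNA organoids, against 177, 157 and 158 CPM in Renilla shRNA organoids, with a Benjamini-Hochberg adjusted p of 0.00582 (edgeR quasi-likelihood). It was the single gene called among 14169 tested (0.00706%). All 6 epithelial markers (Epcam, Krt8, Krt18, Krt19, Cdh1 and Sox9) passed the filter, and they summed to 5824 to 7738 CPM in Scrib shRNA libraries and 6580 to 9700 CPM in Renilla shRNA libraries. Markers of acinar, immune, endothelial and endocrine cells summed to at most 5.96, 5.76, 0.421 and 1.46 CPM in Scrib shRNA libraries and at most 7.79, 4.64, 0.273 and 1.27 CPM in Renilla shRNA libraries. Of these, Cpb1, Cela2a, Ptf1a, Ins1 and Ins2 were at 0 throughout. Fibroblast markers reached 1.24 to 7.36 CPM in Scrib shRNA libraries and 0.727 to 1.33 CPM in Renilla shRNA libraries, with Lum at 0, and their part in any result was not tested. In such bulk samples, fewer cells that express a gene and less of its RNA per cell cannot be told apart.

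The promoters of many of these genes carry the ER stress response element (ERSE), the sequence through which ATF6 and XBP1 switch on chaperones, and some carry the C/EBP-ATF response element (CARE) that ATF4 uses. They are shown because they mark some of the members by the 2 kinds of factor whose outputs are compared below. The windows come from the RefSeq promoter table for GRCm38.p6, run from 250 bases before to 50 bases after an annotated start, and exist for 32 of the 36 members. Lower case marks flanking bases, capitals the motif, and the sequences read 5′ to 3′ on the strand of the gene, so that a motif on the opposite strand appears as its reverse complement.
Hspa5 (chr2:34772020-34772048, plus strand): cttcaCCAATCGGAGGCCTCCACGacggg
Hsp90b1 (chr10:86705528-86705661, minus strand): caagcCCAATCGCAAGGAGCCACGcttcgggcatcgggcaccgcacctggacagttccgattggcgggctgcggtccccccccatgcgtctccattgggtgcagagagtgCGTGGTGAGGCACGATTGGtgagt
Calr (chr8:84847070-84847098, minus strand): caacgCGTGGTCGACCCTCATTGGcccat
Canx (chr11:50325795-50325823, minus strand): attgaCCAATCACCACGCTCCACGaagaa
Pdia6 (chr12:17266486-17266514, plus strand): agagaCCAATGAAAGGCGGCCACGgcgtg
Dnajc3 (chr14:118937822-118937850, plus strand): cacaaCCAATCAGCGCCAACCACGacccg
Creld2 (chr15:88819515-88819543, plus strand): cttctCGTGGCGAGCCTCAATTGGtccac
Derl3 (chr10:75893237-75893265, plus strand): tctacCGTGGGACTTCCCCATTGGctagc
Syvn1 (chr19:6046527-6046555, plus strand): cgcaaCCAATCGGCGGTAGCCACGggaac
Herpud1 (chr8:94386312-94386392, plus strand): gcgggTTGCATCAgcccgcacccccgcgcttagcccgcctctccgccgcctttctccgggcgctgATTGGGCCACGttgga
Chac1 (chr2:119351044-119351061, plus strand): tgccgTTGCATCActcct
Asns (chr6:7693220-7693237, minus strand): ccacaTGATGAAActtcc

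The first 9 of these windows hold an exact ERSE, searched on both strands as CCAAT, any 9 bases and CCACG, and Hsp90b1 holds 2 copies. That is 9 of 32 members with a window (28.1%), against 39 of 32851 RefSeq windows of the same length (0.119%). ERSE-II, searched as ATTGG, any 1 base and CCACG, was found in Herpud1 and Dnajb11 (6.25% of members, against 0.0365% of all windows). CARE, searched as TGATGNAA, was found in Asns, Chac1, Trib3 and Herpud1 (12.5% of members, against 3.97% of all windows). Herpud1, which encodes an ER membrane protein of the ERAD complex, thus held both an ERSE-II and a CARE in 1 window. The XBP1 element searched as TGACGTGG was in no member window and in 0.676% of all windows. Matches of different motifs did not overlap in any member window, although ERSE and ERSE-II share their CCAAT and CCACG parts. The Dnajb11 and Trib3 matches lie after the start and are not printed. These matches describe letters in a window and were not shown here to be bound.

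Of the 36 members, 0 passed the test for the hairpin at an adjusted p under 0.05 with all 3 lines by edgeR, DESeq2 or limma-voom, and 33 had a log2 fold change (Scrib shRNA over Renilla shRNA) below 0 and 3 above it. Over all genes tested 51.8% were below 0. The median was -0.12 for the members and -0.01 for all genes. At an unadjusted p under 0.05, 2 members were lower, Dnajb9 and Sel1l, where 5.06% of all genes tested were lower at that level, and 0 members were higher (1.55% of all genes). The 95% interval covered 0 for the other 34 members. Counts by direction depended on the lines: 33 members below 0 became 34 without T91, 29 without T113 and 24 without T118. In each of the 3 lines alike, 10 members were lower (15.5% of all genes were) and 0 were higher (14.7% of all genes).

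**Figure D1:**
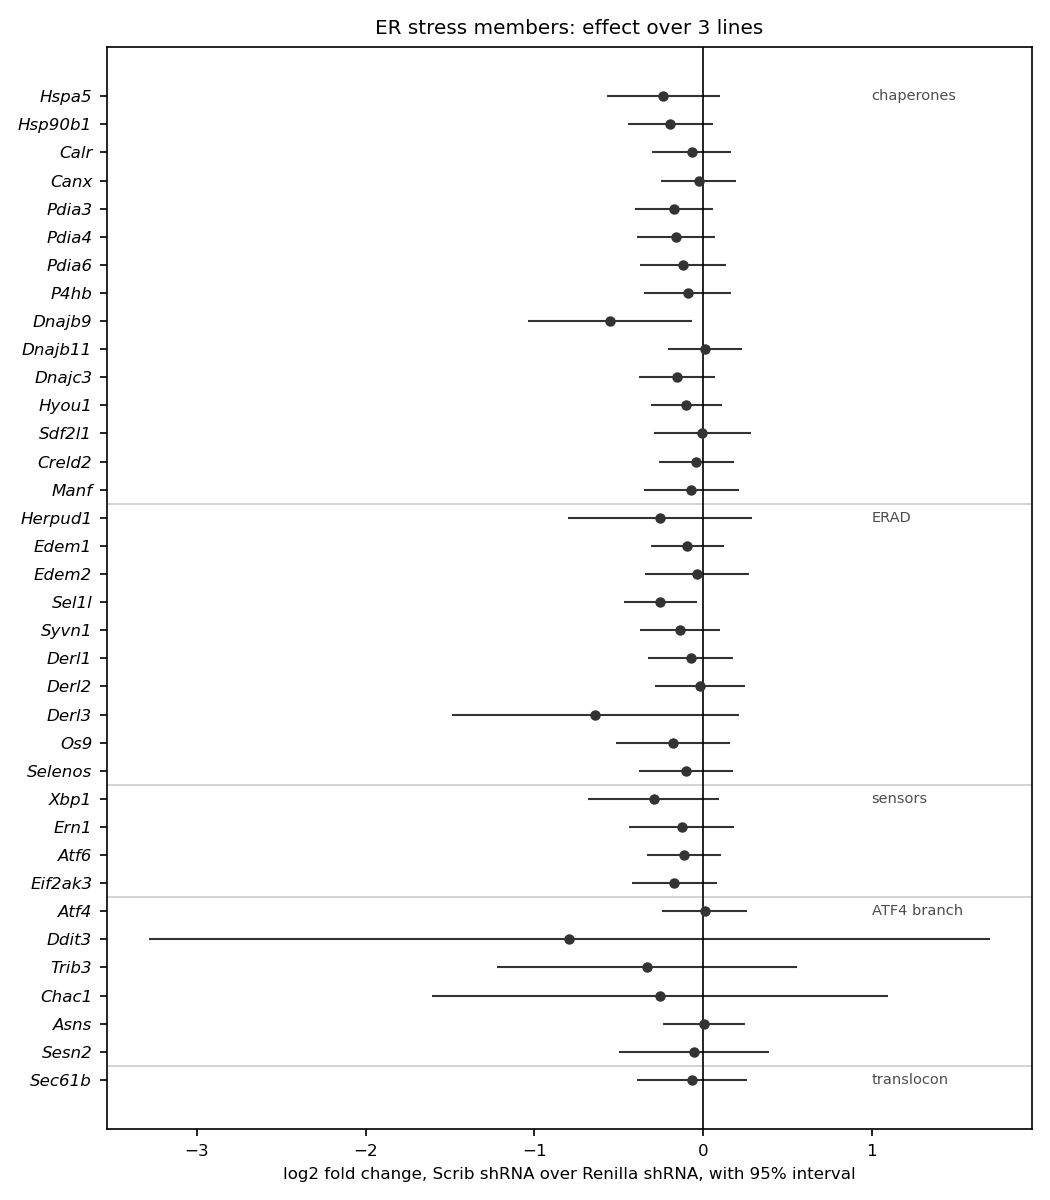
Log2 fold change of each of the 36 members over the 3 lines, Scrib shRNA over Renilla shRNA, as points with 95% intervals from edgeR, with genes down the page by role. The intervals of Dnajb9 and Sel1l lie below 0, the other 34 cover 0, and the interval of Ddit3 is the widest.

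The chaperones and folding enzymes were 14 of 15 below 0, with a median of -0.10 and 0 called. By line the class medians of the log2 ratio were 0.05, -0.22 and -0.16. Summed, the class came to 7590, 6935 and 6277 CPM in Scrib shRNA organoids, against 7294, 8232 and 7259 CPM in Renilla shRNA organoids. The Scrib shRNA sum was thus the higher one in T91 and the lower one in the other 2 lines.

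Hspa5 (chr2:34771970-34777547, plus strand) encodes BiP, the main ER chaperone, which also holds the stress sensors inactive. Its level was 1605, 1296 and 1061 CPM in Scrib shRNA organoids, against 1443, 1788 and 1390 CPM in Renilla shRNA organoids. The groups overlapped, because T91 was higher with the Scrib shRNA while T113 and T118 were lower. Over the lines its log2 fold change came to -0.23, the standard error (SE) was 0.14 and there was a 95% interval of -0.57 to 0.10. The Benjamini-Hochberg adjusted p was 0.786 (edgeR quasi-likelihood), and it ran from 0.0616 (without T91) to 1 over the alternatives.

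Hsp90b1, the ER chaperone GRP94, had 1203, 1045 and 941 CPM in Scrib shRNA organoids, against 1189, 1305 and 1137 CPM in Renilla shRNA organoids. Here T91 was nearly level and the lowest values were again those of T113 and T118 with the Scrib shRNA. Pdia3, a disulphide isomerase that works on glycoproteins, had 707, 635 and 568 CPM in Scrib shRNA organoids, against 720, 770 and 658 CPM in Renilla shRNA organoids. Its log2 fold change was -0.17 (SE 0.10), and that of Hsp90b1 was -0.19 (SE 0.11), each with a Benjamini-Hochberg adjusted p of 0.783 (edgeR quasi-likelihood). The groups overlapped for both genes.

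Dnajb9 (chr12:44205559-44210326, minus strand) encodes ERdj4, a BiP co-chaperone that returns BiP to IRE1. It had 18.7, 14.4 and 10.4 CPM in Scrib shRNA organoids, against 18.1, 25.2 and 19.1 CPM in Renilla shRNA organoids. T91 was level, and both other lines had less with the Scrib shRNA, with log2 ratios of 0.05, -0.81 and -0.88. The log2 fold change was -0.55 (SE 0.20, 95% interval -1.04 to -0.06), with an unadjusted p of 0.0325 and a Benjamini-Hochberg adjusted p of 0.748 (edgeR quasi-likelihood). Without T91 it was -0.85 with an adjusted p of 0.0349 by the same edgeR test, and over the alternatives the adjusted p ran from 0.0349 to 1. That was the single call of a member for the hairpin in any alternative, in a fit of 2 lines that called 94 genes in all. Of the 31-base words in Dnajb9 transcripts, 10.8% also occur in the gene model Gm6568.

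Dnajc3 (chr14:118937976-118981697, plus strand) encodes p58IPK, an inhibitor of PERK and BiP co-chaperone. It had 109, 110 and 108 CPM in Scrib shRNA organoids, against 127, 127 and 110 CPM in Renilla shRNA organoids. It was the 1 member whose groups did not overlap, as was true of 4.74% of all genes, and the gap was narrow because T118 hardly differed between hairpins. Its log2 fold change was -0.16 (SE 0.09), with a Benjamini-Hochberg adjusted p of 0.788 (edgeR quasi-likelihood).

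The other 10 chaperones and enzymes lay between -0.16 and 0.01 on the log2 scale. Pdia4, a further disulphide isomerase, was at -0.16 (SE 0.10), and the isomerases Pdia6 and P4hb were at -0.12 (SE 0.11) and -0.09 (SE 0.11). The lectin chaperones Calr and Canx, which hold glycoproteins until they fold, were at -0.07 (SE 0.10) and -0.02 (SE 0.09). Hyou1, the nucleotide exchange factor of BiP, was at -0.10 (SE 0.09). Dnajb11, a BiP co-chaperone, was at 0.01 (SE 0.09), and Sdf2l1, its partner in a complex, was at -0.00 (SE 0.12). Manf and Creld2, secreted and ER-resident proteins known to be induced by ER stress, were at -0.07 (SE 0.12) and -0.04 (SE 0.09).

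The ERAD genes were 10 of 10 below 0 with a median of -0.12, 0 called, and class medians by line of 0.11, -0.19 and -0.25. Their sums were 825, 875 and 726 CPM in Scrib shRNA organoids, against 790, 994 and 887 CPM in Renilla shRNA organoids. Again T91 alone had the higher sum with the Scrib shRNA.

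Sel1l (chr12:91806043-91849157, minus strand) encodes the adaptor that holds the ubiquitin ligase HRD1 in the ER membrane. It had 123, 162 and 143 CPM in Scrib shRNA organoids, against 151, 198 and 161 CPM in Renilla shRNA organoids. It was lower with the Scrib shRNA in each line, T91 included, while the groups overlapped because T113 was high with either hairpin. The log2 fold change was -0.25 (SE 0.09, 95% interval -0.47 to -0.03), with an unadjusted p of 0.0296 and a Benjamini-Hochberg adjusted p of 0.748 (edgeR quasi-likelihood). Over the alternatives that adjusted p ran from 0.250 to 1. Syvn1, which encodes HRD1 itself, had 54.0, 68.0 and 53.9 CPM in Scrib shRNA organoids, against 56.7, 70.6 and 66.1 CPM in Renilla shRNA organoids. Its log2 fold change was -0.14 (SE 0.10), with the clearest gap in T118.

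Herpud1 (chr8:94386438-94395377, plus strand) had 128, 116 and 54.1 CPM in Scrib shRNA organoids, against 101, 136 and 99.0 CPM in Renilla shRNA organoids. The Scrib shRNA library of T118 was the lowest of the 6 and that of T113 lay below its control, whereas T91 was higher, with log2 ratios of 0.34, -0.23 and -0.87. The log2 fold change was -0.25 (SE 0.22), with a Benjamini-Hochberg adjusted p of 0.829 (edgeR quasi-likelihood), and without T118 it was 0.05. Os9, a lectin that hands misfolded glycoproteins to the ligase, had 104, 114 and 97.7 CPM in Scrib shRNA organoids, against 97.7, 120 and 144 CPM in Renilla shRNA organoids. Of the lines, T118 held the widest gap for Os9, and the log2 fold change was -0.18 (SE 0.14) with all lines and 0.01 without T118.

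Derl3, a member of the derlin channel family, was barely expressed, at 0.379, 0.781 and 0.220 CPM in Scrib shRNA organoids, against 0.536, 1.24 and 0.375 CPM in Renilla shRNA organoids. It was lower with the Scrib shRNA in each line, but on 6 counts in the shallowest case, and its log2 fold change of -0.64 had an SE of 0.35 and a Benjamini-Hochberg adjusted p of 0.783 (edgeR quasi-likelihood). The derlins Derl1 and Derl2 were at -0.07 (SE 0.10) and -0.02 (SE 0.11). Edem1 and Edem2, which mark glycoproteins for removal, were at -0.09 (SE 0.09) and -0.04 (SE 0.13), and Selenos, a selenoprotein of the same complex, was at -0.10 (SE 0.11).

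**Figure D2:**
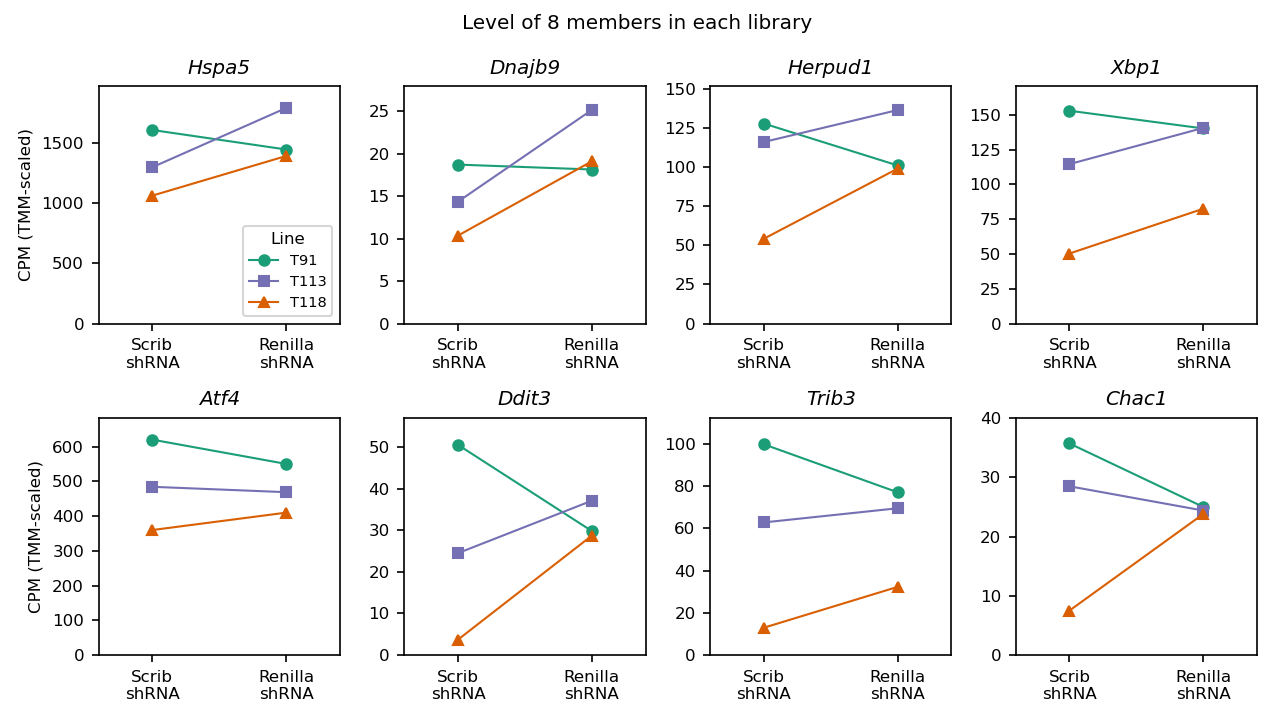
CPM of 8 members in each library, with Scrib shRNA on the left and Renilla shRNA on the right of each panel and a line joining the 2 libraries of an organoid line. In all panels but that of Atf4, the T118 line drops towards the Scrib shRNA by a visible step while the T91 line is level or climbs.

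All 4 sensors and factors were below 0, with a median of -0.15 and 0 called. By line the class medians were -0.12, -0.11 and -0.19, with 3, 4 and 3 of the genes below 0. Unlike the chaperones and the ERAD genes, this class thus had a median below 0 in T91 too. Xbp1 (chr11:5520659-5525893, plus strand), the transcription factor that IRE1 activates, had 153, 115 and 50.3 CPM in Scrib shRNA organoids, against 140, 141 and 82.6 CPM in Renilla shRNA organoids. T118 was low with either hairpin and lowest with the Scrib shRNA. Its log2 ratios were 0.13, -0.30 and -0.71, and the log2 fold change was -0.29 (SE 0.16, 95% interval -0.68 to 0.10), with a Benjamini-Hochberg adjusted p of 0.783 (edgeR quasi-likelihood). These are counts per gene, so the spliced and unspliced forms of Xbp1 were not told apart.

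Ern1 (chr11:106394650-106487852, minus strand), the IRE1 sensor, ran the other way across lines. It had 40.3, 74.4 and 47.1 CPM in Scrib shRNA organoids, against 55.1, 76.8 and 43.4 CPM in Renilla shRNA organoids. T91 was the line with less Ern1 under the Scrib shRNA, T113 was nearly level and T118 was slightly higher, with log2 ratios of -0.45, -0.05 and 0.12. The log2 fold change was -0.13 (SE 0.13) and turned to 0.03 without T91. Eif2ak3, the PERK kinase, had 36.8, 46.0 and 30.8 CPM in Scrib shRNA organoids, against 37.9, 50.2 and 39.2 CPM in Renilla shRNA organoids. Atf6 had 110, 139 and 107 CPM in Scrib shRNA organoids, against 126, 149 and 110 CPM in Renilla shRNA organoids. Each was lower with the Scrib shRNA in every line by a small step, with log2 fold changes of -0.17 (SE 0.10) and -0.11 (SE 0.09) and overlapping groups.

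Among the classes, the ATF4 branch with its 6 measured genes had the medians that differed most between the lines. That does not hold gene by gene, since Atf4 and Asns moved less between lines than Herpud1, Dnajb9 or Xbp1. In T91 all 6 were higher with the Scrib shRNA, with a class median log2 ratio of 0.38, and in T118 all 6 were lower, with a class median of -0.96. In T113 the median was -0.03, with 3 below 0. Over all genes tested, the median ratio in each line lay within 0.01 of 0. Over the 3 lines the class median was -0.15 with 0 called, and it became -0.47 without T91 and 0.11 without T118, so its sign rested on T118.

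Atf4 (chr15:80255184-80257541, plus strand) was at 620, 484 and 360 CPM in Scrib shRNA organoids, against 550, 469 and 410 CPM in Renilla shRNA organoids. The order of the lines was the same with either hairpin, and the log2 ratios were 0.17, 0.05 and -0.19. Its log2 fold change was 0.01 (SE 0.10, 95% interval -0.24 to 0.26), with a Benjamini-Hochberg adjusted p of 0.985 (edgeR quasi-likelihood). ATF4 is controlled largely at translation, which RNA levels do not measure.

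Ddit3 (chr10:127290774-127296288, plus strand) encodes CHOP, a factor linked to stress-induced cell death, and had the widest swing. It was at 50.6, 24.5 and 3.70 CPM in Scrib shRNA organoids, against 29.8, 37.1 and 28.7 CPM in Renilla shRNA organoids. The Scrib shRNA libraries held both the highest value (T91) and the lowest (T118), while the 3 Renilla shRNA libraries lay close together. The log2 ratios were 0.76, -0.60 and -2.94, the last from 101 counts in the Scrib shRNA library and 842 in its control. The log2 fold change was -0.79 with an SE of 0.85 (95% interval -3.28 to 1.70) and a Benjamini-Hochberg adjusted p of 0.861 (edgeR quasi-likelihood). It was -1.62 without T91 and 0.08 without T118.

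Trib3 (chr2:152337422-152344032, minus strand), a pseudokinase induced by ATF4 and CHOP, was at 99.8, 62.8 and 12.9 CPM in Scrib shRNA organoids, against 77.1, 69.5 and 32.3 CPM in Renilla shRNA organoids. Chac1 (chr2:119351229-119354381, plus strand), an enzyme that breaks down glutathione, was at 35.7, 28.5 and 7.50 CPM in Scrib shRNA organoids, against 25.0, 24.4 and 23.8 CPM in Renilla shRNA organoids. As with Ddit3, the Chac1 values of the Renilla shRNA libraries were nearly equal and those of the Scrib shRNA libraries lay on both sides of them. The log2 ratios were 0.37, -0.15 and -1.32 for Trib3. For Chac1 they were 0.51, 0.22 and -1.66. The log2 fold changes were -0.33 (SE 0.34) for Trib3 and -0.25 (SE 0.49) for Chac1, with Benjamini-Hochberg adjusted p of 0.856 and 0.925 (edgeR quasi-likelihood). Without T118 they were 0.11 and 0.37.

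Sesn2 (chr4:132492032-132510501, minus strand), a sestrin that restrains mTORC1 when amino acids are short, was at 42.5, 34.6 and 13.1 CPM in Scrib shRNA organoids, against 32.5, 34.2 and 19.8 CPM in Renilla shRNA organoids. Asns (chr6:7675169-7693254, minus strand), asparagine synthetase, was at 316, 445 and 330 CPM in Scrib shRNA organoids, against 274, 469 and 355 CPM in Renilla shRNA organoids. Sesn2 followed the order of Trib3, with log2 ratios of 0.39, 0.02 and -0.60, while Asns moved within a narrow range of 0.20, -0.08 and -0.11. Their log2 fold changes were -0.05 (SE 0.19) and 0.01 (SE 0.10). Sec61b (chr4:47474658-47483242, plus strand), a small subunit of the channel through which proteins enter the ER, was at 85.0, 62.7 and 54.2 CPM in Scrib shRNA organoids, against 69.5, 69.6 and 68.1 CPM in Renilla shRNA organoids. Its Scrib shRNA values also lay on both sides of nearly equal controls, with a log2 fold change of -0.06 (SE 0.14), and 23.5% of its 31-base words occur in other gene models, among them Gm10320.

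**Figure D3:**
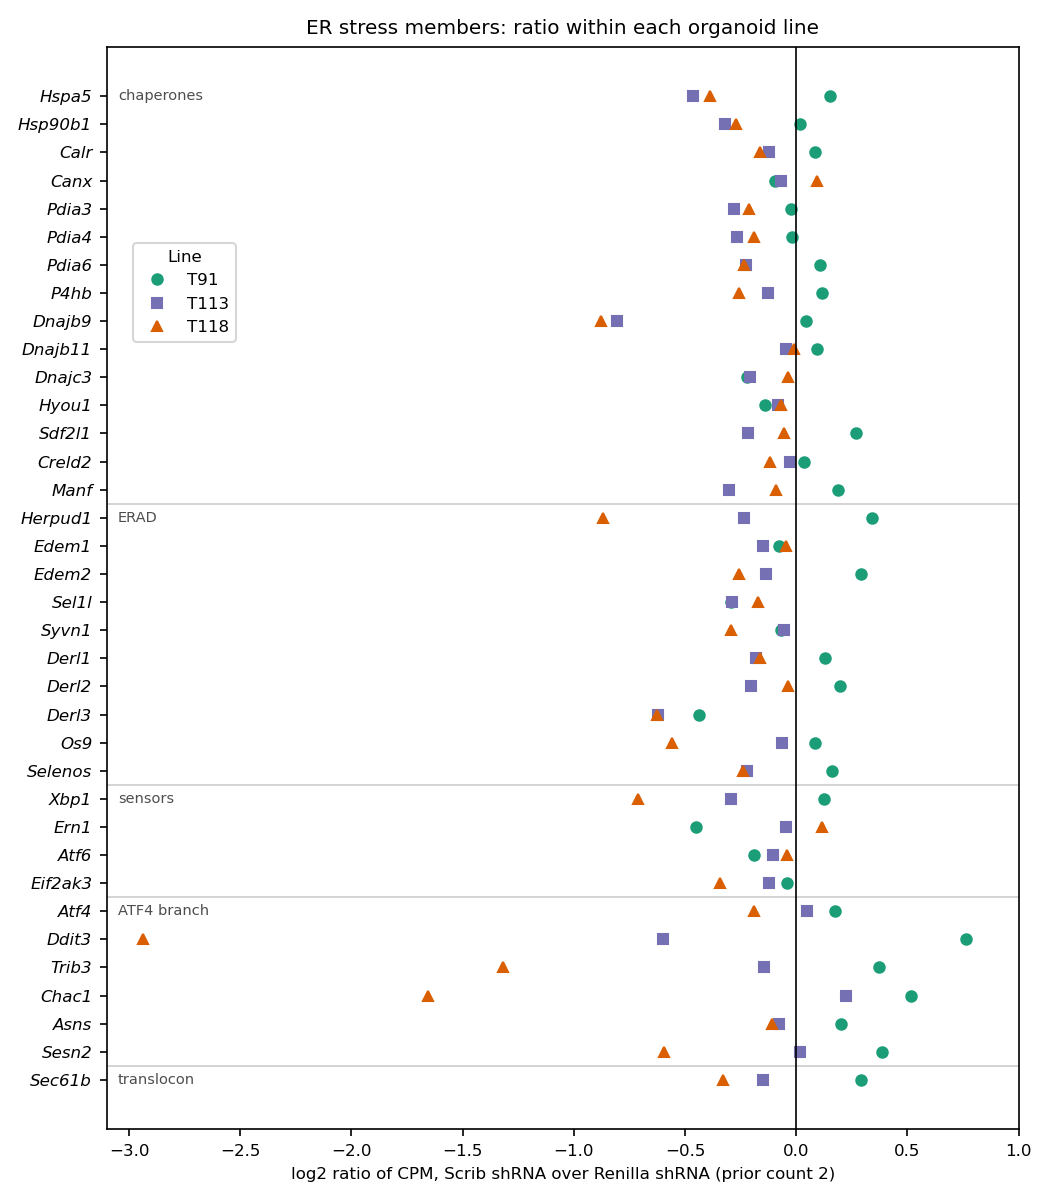
Log2 ratio of CPM, Scrib shRNA over Renilla shRNA, within each of the 3 organoid lines for the 36 members, with a prior count of 2 added. T91 (circles) lies above 0 for 24 members, while T113 (squares) lies below 0 for 33 and T118 (triangles) for 34.

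The split between lines was not confined to the ATF4 branch, although the sensors had a class median below 0 in every line. Above 0 were 24 of 36 members in T91 (50.1% of all genes), whereas 33 were below 0 in T113 (50.5% of all genes) and 34 were in T118 (50.2% of all genes). The pattern of T91 above 0 and both other lines below it was that of 21 members (58.3%, against 17.1% of all genes). Being above 0 in T91 and below 0 in T118 was shared by 24 (66.7%, against 28.7% of all genes). In size, most ratios were small: log2 ratios under -0.5 were found for 0 members in T91 (10.4% of all genes), for 3 in T113 (8.21% of all genes) and for 9 in T118 (14.6% of all genes). The members under -1 in T118 were Ddit3, Trib3 and Chac1, which is 8.33% of the members, against 5.64% of all genes. The 6 epithelial markers had line medians of 0.14, -0.18 and -0.30, the same order of lines as the members, whose medians were 0.10, -0.15 and -0.22. Their sums were 7738, 5824 and 7041 CPM in Scrib shRNA organoids, against 6938, 6580 and 9700 CPM in Renilla shRNA organoids, and their part in the member ratios was not tested. Members are not independent of each other, and with 1 library per line and hairpin the difference between lines in the effect of the hairpin could not be tested.

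The members were also grouped by promoter motif, in sets that overlap. The 9 members with an ERSE were all below 0 and had a median log2 fold change of -0.14, with line medians of 0.02, -0.21 and -0.24. The 23 members whose window holds no ERSE had a median of -0.13, with line medians of 0.16, -0.15 and -0.26. Herpud1 and Dnajb11, which hold an ERSE-II, were counted in that set. The 4 with a CARE are among those 23. Their median was -0.25, and their line medians of 0.36, -0.11 and -1.09 were the widest apart of the 3 sets. All but Herpud1 belong to the ATF4 branch described above. Within that branch the motif did not sort the genes: Ddit3 and Sesn2, without a CARE, ran from 0.76 to -2.94 and from 0.39 to -0.60. Asns, with a CARE, ran only from 0.20 to -0.11. These are descriptions of small sets and were not tested.

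Between the lines themselves, 4 members were called by edgeR's test of both line terms (11.1%, against 14.0% of all genes), namely Xbp1, Ern1, Asns and Sesn2. T91 alone was female and each line had its own passage, so sex and passage cannot be told apart from line. With the hairpins averaged, Xbp1 stood at 147, 128 and 66.4 CPM and Sesn2 at 37.5, 34.4 and 16.5 CPM, so that T118 was lowest for each. The log2 difference of T118 over T91 was -1.18 (SE 0.20) for Xbp1 and -1.19 (SE 0.23) for Sesn2, with Benjamini-Hochberg adjusted p of 0.015 and 0.023 (edgeR quasi-likelihood). That of T118 over T113 was -0.96 (SE 0.20) for Xbp1 and -1.07 (SE 0.23) for Sesn2, with adjusted p of 0.032 and 0.036 by the same edgeR test. T91 and T113 did not differ beyond their spread for either gene. Ern1 stood at 75.6 CPM in T113, 47.7 in T91 and 45.3 in T118, and T118 over T113 was -0.74 (SE 0.16), with an adjusted p of 0.036 by edgeR.

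Asns stood at 457 CPM in T113, 342 in T118 and 295 in T91, with T113 over T91 at 0.63 (SE 0.13) and a Benjamini-Hochberg adjusted p of 0.037 (edgeR quasi-likelihood). Atf4 stood at 385 CPM in T118 and 585 in T91, and T118 over T91 was -0.60 (SE 0.13) with an adjusted p of 0.031 by edgeR, although the test of both line terms did not call it. In all, T118 was lower than T91 for 3 members (5.80% of all genes) and lower than T113 for 3 (5.34% of all genes), and T113 was higher than T91 for 1 (2.89% of all genes). The number of members called for line was 14 without T91, 2 without T113 (Xbp1 and Sesn2) and 2 without T118 (Ern1 and Asns). Line held a median of 63.2% of the variance in log2 CPM of a member and the hairpin 10.2%, where the medians over all genes tested were 62.8% and 8.09%. The share of line was the largest of line, hairpin and remainder for 26 of the 36 members, as for 68.8% of all genes.

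Levels compared between genes need a scale per length, here CPM per kilobase of exon averaged over the 6 libraries. On that scale the folding enzymes led, with P4hb at 385, Hspa5 at 338, Calr at 319, Hsp90b1 at 282 and Pdia3 at 215. Atf4 stood at 205 and Asns at 133, ahead of Canx at 122. The sensors and factors were far lower than these, with Xbp1 at 35.0, Atf6 at 13.4, Ern1 at 6.87 and Eif2ak3 at 6.66. Some chaperones and ERAD genes lay in that range too, among them Dnajc3 at 22.4, Sel1l at 18.3 and Dnajb9 at 6.92. Derl3 was the lowest member at 0.295. Ddit3 stood at 17.0 and Chac1 at 14.7, so that the genes with the widest ratios were of moderate level per length.

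**Figure D4:**
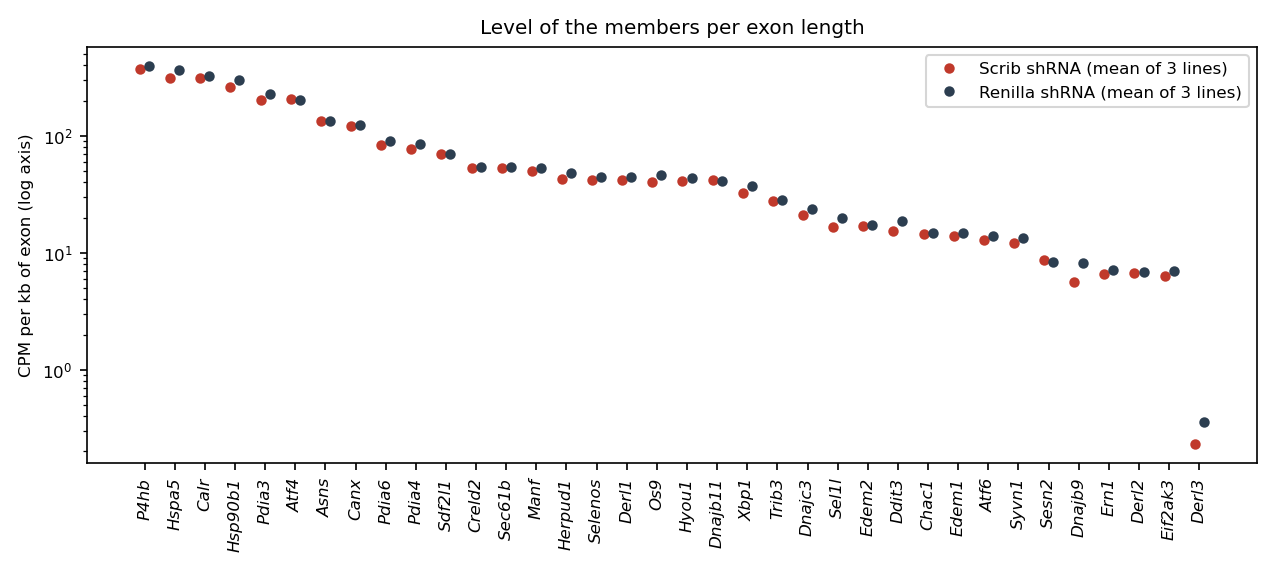
CPM per kilobase of exon of the 36 members on a log axis, with the mean of the 3 Scrib shRNA libraries and the mean of the 3 Renilla shRNA libraries side by side for each gene. P4hb is the highest, Derl3 is far below all others, and the 2 means of a gene lie close together compared with the spread between genes.

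Other genes of the same pathways were looked at in lists that do not include the members, and 0 were called in any list. The 18 further ER folding genes were 11 below 0 and 7 above it, with a median of -0.10 and line medians of 0.21, -0.22 and -0.14. At an unadjusted p under 0.05, Dnajc10 and Fkbp14 were lower and 0 were higher. Dnajc10, a disulphide reductase that helps ERAD, was at 234, 218 and 117.8 CPM in Scrib shRNA organoids, against 306, 300 and 131 CPM in Renilla shRNA organoids, lower in each line, with a log2 fold change of -0.34 (SE 0.10) and a Benjamini-Hochberg adjusted p of 0.712 (edgeR quasi-likelihood). Fkbp14, a prolyl isomerase of the ER, was at most 0.695 CPM in Scrib shRNA organoids and at least 0.771 CPM in Renilla shRNA organoids, so its groups did not overlap, at low counts. Pdia5 and Txndc5, both of the disulphide isomerase family, were at -0.27 (SE 0.12) and -0.18 (SE 0.09).

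The 16 further ERAD genes were 9 below 0 and 7 above it, with a median of -0.02 and 0 at an unadjusted p under 0.05. Their line medians were 0.008, -0.08 and 0.03, with 8, 10 and 4 of the genes below 0. In T118 they thus differed from the ERAD members, of which 10 of 10 were below 0 there. The smallest p were those of Erlin2 at -0.20 (SE 0.09), Edem3 at -0.26 (SE 0.16), Erlec1 at -0.18 (SE 0.12) and March6 at -0.15 (SE 0.11). Edem3 had most of its gap in T91, with a log2 ratio of -0.71 there.

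Of 12 further sensors and stress factors, 9 were below 0 and 3 above it, with a median of -0.10. Their line medians were -0.30, -0.03 and -0.006, with 9, 8 and 6 of the genes below 0. Ern2, Creb3l1 and Creb3l2 were lower at an unadjusted p under 0.05. Ern2 encodes IRE1β, the sensor of mucus-producing epithelium. It had 2.86, 23.9 and 4.21 CPM in Scrib shRNA organoids, against 8.95, 38.0 and 11.7 CPM in Renilla shRNA organoids. It was lower with the Scrib shRNA in each of the 3 lines, with T113 high under either hairpin, and its log2 fold change was -1.22 (SE 0.21) with a Benjamini-Hochberg adjusted p of 0.509 (edgeR quasi-likelihood). Creb3l1, an ER-bound transcription factor of secretory cells, had 6.31, 32.0 and 0.439 CPM in Scrib shRNA organoids, against 14.0, 53.2 and 3.38 CPM in Renilla shRNA organoids (log2 fold change -1.29, SE 0.35). Creb3l2, its relative, was at -0.48 (SE 0.12), and Wfs1, an ER membrane protein, at -0.22 (SE 0.12).

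A list of ER genes of mucus cells, which shares Ern2 and Creb3l1 with the further sensors, had 4 of 5 members measured. All 4 were below 0, with a median of -1.17 and line medians of -1.04, -0.70 and -1.53. Over all genes tested 51.8% were below 0, and the list was chosen with earlier results of these data known. Agr2, the isomerase that folds mucins, had 43.1, 296 and 39.8 CPM in Scrib shRNA organoids, against 82.8, 525 and 121 CPM in Renilla shRNA organoids. It was lower with the Scrib shRNA in each line, T91 included, with a Benjamini-Hochberg adjusted p of 0.394 (edgeR quasi-likelihood). Creb3l4 was at -0.51 (SE 0.30).

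The 34 further ATF4 targets were 21 below 0 and 13 above it, with a median of -0.03 and line medians of 0.19, -0.08 and -0.21. At an unadjusted p under 0.05, Slc7a11 was lower and Shmt2 was higher. Slc7a11, the cystine importer, was at 71.0, 84.8 and 62.7 CPM in Scrib shRNA organoids, against 93.7, 131 and 84.0 CPM in Renilla shRNA organoids, lower in each line with overlapping groups (log2 fold change -0.48, SE 0.10, Benjamini-Hochberg adjusted p 0.554 from edgeR's quasi-likelihood fit). Shmt2, a mitochondrial enzyme of serine metabolism, was at 378, 369 and 356 CPM in Scrib shRNA organoids, against 314, 313 and 312 CPM in Renilla shRNA organoids. Its groups did not overlap, yet its log2 fold change of 0.23 (SE 0.09) had a Benjamini-Hochberg adjusted p of 0.748 (edgeR quasi-likelihood). Vldlr, a lipoprotein receptor, was at -0.49 (SE 0.21), and Stc2, a stanniocalcin, was at -0.23 (SE 0.11).

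Genes of hypoxia showed the same order of lines as the ATF4 branch. All 12 were below 0 (51.8% of all genes were), with a median of -0.55 and 0 called. Vegfa alone was lower at an unadjusted p under 0.05 by edgeR (5.06% of all genes were). By line the medians were 0.13, -0.49 and -1.01, with 3, 12 and 12 of the genes below 0. Their summed level was 6516, 4845 and 3145 CPM in Scrib shRNA organoids, against 5387, 5768 and 5040 CPM in Renilla shRNA organoids. Vegfa, the endothelial growth factor, was at 184, 104 and 38.0 CPM in Scrib shRNA organoids, against 185, 145 and 76.4 CPM in Renilla shRNA organoids. Pdk1, P4ha1 and Car9 were at -0.38 (SE 0.16), -0.44 (SE 0.19) and -0.79 (SE 0.33). The oxidase gene Ero1l, which drives disulphide formation in the ER, was at 600, 316 and 133 CPM in Scrib shRNA organoids, against 488, 611 and 324 CPM in Renilla shRNA organoids. It is named after its values were seen because it shares that order of lines. The part of the hypoxia genes in the member ratios was not tested.

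The order of lines was not shared by the cytosolic and mitochondrial chaperones, which answer to other stress sensors. Nor was it shared by the further ERAD genes, the further sensors and stress factors or the ER genes of mucus cells. The member chaperones and the further ER folding genes had T91 highest but T113, not T118, lowest. The 4 member sensors and factors had T91 and T113 nearly level, at -0.12 and -0.11. Of the 11 cytosolic and mitochondrial chaperones, 7 were above 0 and 4 below it, with a median of 0.05 and 0 called. Their line medians were 0.02, 0.08 and 0.08. Hspe1 was at 0.21 (SE 0.09), Hsp90aa1 at 0.20 (SE 0.11), Hspd1 at 0.14 (SE 0.11) and Hsph1 at 0.15 (SE 0.14).

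**Figure D5:**
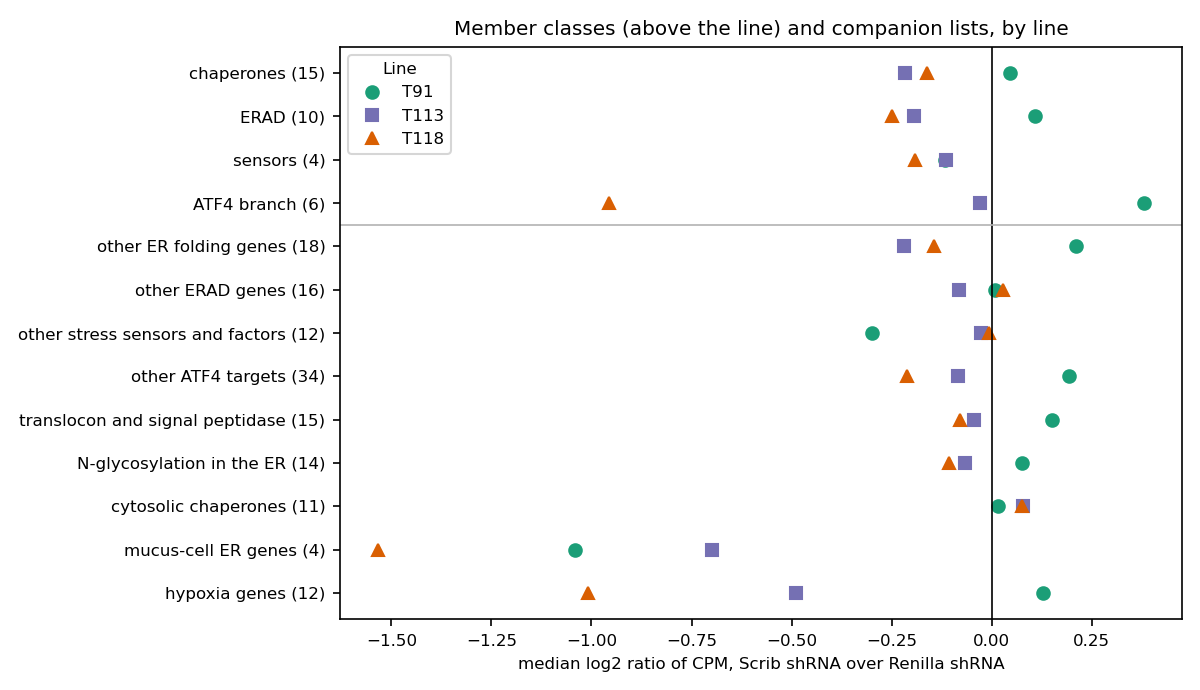
Median log2 ratio of CPM, Scrib shRNA over Renilla shRNA, in each of the 3 lines for the 4 member classes with more than 1 gene (above the grey line) and for the 9 companion lists, with the number of genes measured in brackets. The ATF4 branch spans 0.38 in T91 to -0.96 in T118 and hypoxia genes 0.13 to -1.01, while the cytosolic chaperones stay between 0.02 and 0.08.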

How the data were processed

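Messenger RNA libraries were made from 6 organoid cultures, 3 per hairpin. The authors deposited estimated counts per gene; per the submitters' processing notes, Salmon 1.4.0 and DESeq 2 were used with GRCm38 (mm10). The sources used here give no transcript annotation, strand setting or method of summing to genes, so overlapping genes, antisense genes and near-identical copies may trade counts. Symbols came from GENCODE M21 (54131 of 54453 identifiers matched).

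Estimated counts were rounded and tested with edgeR 4.0.16 in R 4.3.3: filterByExpr with a minimum count of 10, TMM scaling, a robust quasi-likelihood F-test with terms for line and hairpin, two-sided, Benjamini-Hochberg adjusted over 14169 genes, threshold 0.05. The design leaves 2 residual degrees of freedom. Standard errors come from the fold change and its F statistic. Line ratios use log2 CPM with a prior count of 2. CPM are TMM-scaled, also for genes under the filter. The labels give 3 separate organoid lines, and p-values rest on 1 library per line and hairpin. Line entered as a block, as every line was sampled under both hairpins; the 2 libraries of a line deviated together from their group means (correlations across genes of 0.621 for T91, 0.666 for T113 and 0.662 for T118). No 2 libraries of a group agreed within sampling noise (chi-square per degree of freedom 66.5 to 94.3). The fit was tested on simulated data with the same dispersion for every gene and no differences between lines. That simulation cannot show how the fit handles line effects.

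Members and companion lists were chosen with earlier results of these data known. Named genes are Scrib, all members (library values for Hspa5, Xbp1, Atf4, Ddit3, Sec61b and up to 5 per class by unadjusted p), up to 4 per companion list by unadjusted p, and for lines the members past the threshold; Atf4 in the line contrasts and Ero1l are additions. Of 174 genes in companion and marker lists, 173 were found. Alternatives were no line term, other scalings and filters, DESeq2 1.42.0, limma 3.58.1 (voom), non-robust dispersions, another prior count and leaving out each line.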

Additional observations from a re-analysis of the deposited data

Results flagged for a closer look

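The 6 measured genes of the ATF4 branch (Atf4, Ddit3, Trib3, Chac1, Asns and Sesn2) all lay on one side of 0 in one line and on the other side in another. Their median log2 ratio, Scrib shRNA over Renilla shRNA, was 0.38 in T91 with 6 of 6 above 0, and -0.96 in T118 with 6 of 6 below 0. The difference was not tested, because each line gave 1 library per hairpin. Of all genes tested, 28.7% were likewise above 0 in T91 and below 0 in T118.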

How the results depend on the processing

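The number of genes called for the hairpin was 1 in the fit reported. It was 64 with no low-count filter, 60 with DESeq2 and 8 with limma-voom, and ran from 9 to 94 when a line was left out. Members called ran from 0 to 1 (Dnajb9 without T91) when a line was left out and were 0 under every other alternative. Without the replicate block, that is with no line term, 1 gene and 0 members were called and 33 members lay below 0. The block changed no call of a member. With no low-count filter 36 members lay below 0. Genes called for line numbered 1989 and ran from 1209 to 3305 with a line left out, and members called for line numbered 4 and ran from 2 to 14. The log2 fold changes of 20 members kept their direction in every alternative, and 16 turned, 12 of them only when a line was left out. With no low-count filter Dnajb11 was -0.0084, Atf4 -0.0087 and Asns -0.013. Asns was also -0.010 without the block and -0.0011 with a stricter filter (mean CPM of at least 5), and Sesn2 was 0.059 without the block. With a line left out, Canx ran from -0.086 to 0.012, Dnajb11 from -0.030 to 0.044, Sdf2l1 from -0.14 to 0.11, Manf from -0.20 to 0.052, Herpud1 from -0.55 to 0.049, Edem2 from -0.20 to 0.073, Derl2 from -0.12 to 0.081, Os9 from -0.31 to 0.0077, Ern1 from -0.25 to 0.034 and Sec61b from -0.24 to 0.067. In the ATF4 branch, Atf4 ran from -0.070 to 0.11, Ddit3 from -1.62 to 0.080, Trib3 from -0.69 to 0.11, Chac1 from -0.66 to 0.37, Asns from -0.091 to 0.061 and Sesn2 from -0.27 to 0.20. A fit of 2 lines has fewer samples, and the cause of the other changes was not tested. Depth limits Derl3, with as few as 6 counts, and 1 library per line and hairpin limits all other members.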

Other observations

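Of 15 genes of the translocon and signal peptidase other than Sec61b, 6 were below 0 and 9 above it, with a median log2 fold change of 0.03 (Scrib shRNA over Renilla shRNA) and 0 called. Their medians by line (T91, then T113 and T118) were 0.15, -0.04 and -0.08, with 4, 10 and 8 of the genes below 0. Sec61a1, the channel itself, was at 367, 411 and 384 CPM in Scrib shRNA organoids of T91, T113 and T118, against 390, 423 and 406 CPM in Renilla shRNA organoids, a log2 fold change of -0.07 (SE 0.09). Sec63, a partner of the channel that recruits BiP, was at -0.09 (SE 0.09), Spcs2, a subunit of signal peptidase, at -0.10 (SE 0.12) and Srprb, a subunit of the signal recognition particle receptor, at 0.08 (SE 0.09). Of 14 genes of N-glycosylation and glycan trimming, 10 were below 0 and 4 above it, with a median of -0.03 and 0 called. Their line medians were 0.07, -0.07 and -0.11, with 3, 13 and 11 of the genes below 0, so that in both lists T91 stood above 0 and the other 2 lines below it, as for the members. Ganab, a subunit of glucosidase II, was at -0.14 (SE 0.09), Uggt1, the folding sensor of glycoproteins, at -0.13 (SE 0.10), Mogs, glucosidase I, at 0.13 (SE 0.09) and Rpn1, a subunit of the oligosaccharyltransferase, at -0.07 (SE 0.09).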
